A study of Homo sapiens with 16 samples.

Results

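The genes described here encode enzymes that write or erase methylation of histone H3 at lysine 4 (H3K4) in human cells: the methyltransferases KMT2A, KMT2B, KMT2C, KMT2D, SETD1A and SETD1B, and the demethylases KDM1A, KDM5A, KDM5B and KDM5C. They were chosen by function, as 10 of the 19974 protein-coding genes of the RefSeq table on chromosomes 1 to 22 and X. For each gene, the peaks of 3 histone marks were read over the gene and 10 kb on each side. Toledo, an established line of diffuse large B-cell lymphoma, had been kept for 6 days in suspension culture with DMSO, the control, or with TP-064 at 5 uM (CARM1i), a compound that blocks CARM1, an enzyme that methylates arginines. Chromatin immunoprecipitation and sequencing (ChIP-seq) used antibodies against H3K27ac, H3K4me1 and H3K4me3, with 2 libraries for each mark and treatment, so 12 lists of peaks were compared. By its title, the study asked about CARM1 inhibition and the activity of histone acetyltransferases in lymphoma with mutations of CREBBP or EP300. All libraries come from a single cell line, and nothing in the labels states whether replicate libraries came from separate cultures, so p-values reflect the spread between libraries, which may be technical.

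Trimethylation of H3K4 marks the starts of active genes and is laid down there mainly by the SETD1A, SETD1B, KMT2A and KMT2B complexes. Monomethylation marks enhancers and the flanks of promoters and depends largely on KMT2C and KMT2D, and H3K27ac, placed by CREBBP and EP300, marks promoters and enhancers that are active. KDM1A (also called LSD1) removes mono- and dimethylation as part of the CoREST complex, while the KDM5 enzymes remove trimethylation. KMT2D is among the genes most often mutated in B-cell lymphoma, alongside CREBBP.

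The lists hold intervals only, with no heights or scores, and the read depth behind them is unknown. For H3K27ac there were 7885 and 4016 peaks (DMSO) against 4771 and 4595 (CARM1i), for H3K4me1 25058 and 9673 against 4094 and 4242, and for H3K4me3 12476 and 11481 against 10317 and 10048. A missing peak can therefore be a site that stayed under the threshold of the caller. Treatment also cannot be told apart from sequencing lane, since lane 3 carried the DMSO and lane 4 the CARM1i libraries. Of 8 B-cell marker genes, 7 had an H3K4me3 peak within 2 kb in all 4 libraries and 6 an H3K27ac peak, whereas none of 7 T and NK cell or 5 myeloid markers had H3K4me3 in any. H3K27ac was at 1 T and NK cell marker, CD2, in DMSO replicate 1 and both CARM1i libraries, and at 0 of the myeloid markers. Of 6 epithelial and stromal markers, 1 had H3K4me3 in the DMSO libraries and 0 in the CARM1i libraries, and 1 had H3K27ac in DMSO replicate 1 alone.

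By the hg38 RefSeq table, KMT2A lies on chromosome 11 from 118436492 to 118526832, KMT2B on chromosome 19 from 35718003 to 35738878, KMT2C on chromosome 7 from 152134925 to 152436003 and KMT2D on chromosome 12 from 49018978 to 49060794. SETD1A lies on chromosome 16 from 30957754 to 30984664 and SETD1B on chromosome 12 from 121790155 to 121832656. KDM1A and KDM5B are on chromosome 1, from 23019468 to 23083689 and from 202724495 to 202808421, KDM5A is on chromosome 12 from 280057 to 389320, and KDM5C on the X chromosome from 53176277 to 53225207. The windows differ in how many neighbours they hold, from 0 other protein-coding genes at KMT2C to 5 at KMT2B, and a neighbour's peak counts toward the window.

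All 10 genes carried H3K4me3 in all 4 libraries, against 56.6% of all genes (and 91.9% of those whose DMSO libraries both had it), and each had H3K27ac in at least 1 library, against 37.1%. A mark is called lost from a window when both DMSO libraries and neither CARM1i library had a peak there. No gene of the set lost H3K4me3, where 4.79% of the genes with the mark in both DMSO lists did. The difference at these genes was in the covered length. In 9 of 10 windows both CARM1i libraries covered fewer base pairs of H3K4me3 than both DMSO libraries, a pattern that 82.8% of all genes with a peak showed, and in the window of KDM5A both covered more, which 0.563% of genes showed. The median log2 ratio of mean covered length was -0.29 over the members and -0.32 over all 12794 genes with H3K4me3, so the members as a group lay near genes in general. Because the inhibitor lists cover less of the genome in all (20.9 and 18.9 Mb against 28.5 and 25.2 Mb), lengths were also divided by the covered Mb of their list. On that scale the median of all genes moved to 0.11, 8 members lay higher in both CARM1i libraries (47.9% of all genes did) and SETD1B alone among the 10 lay lower (18.2%). With 2 libraries against 2, the two-sided exact permutation test over libraries cannot give a p below 0.333, which is the value for every difference without overlap below, so no difference at a single gene could pass a test at the usual threshold.

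**Figure D1:**
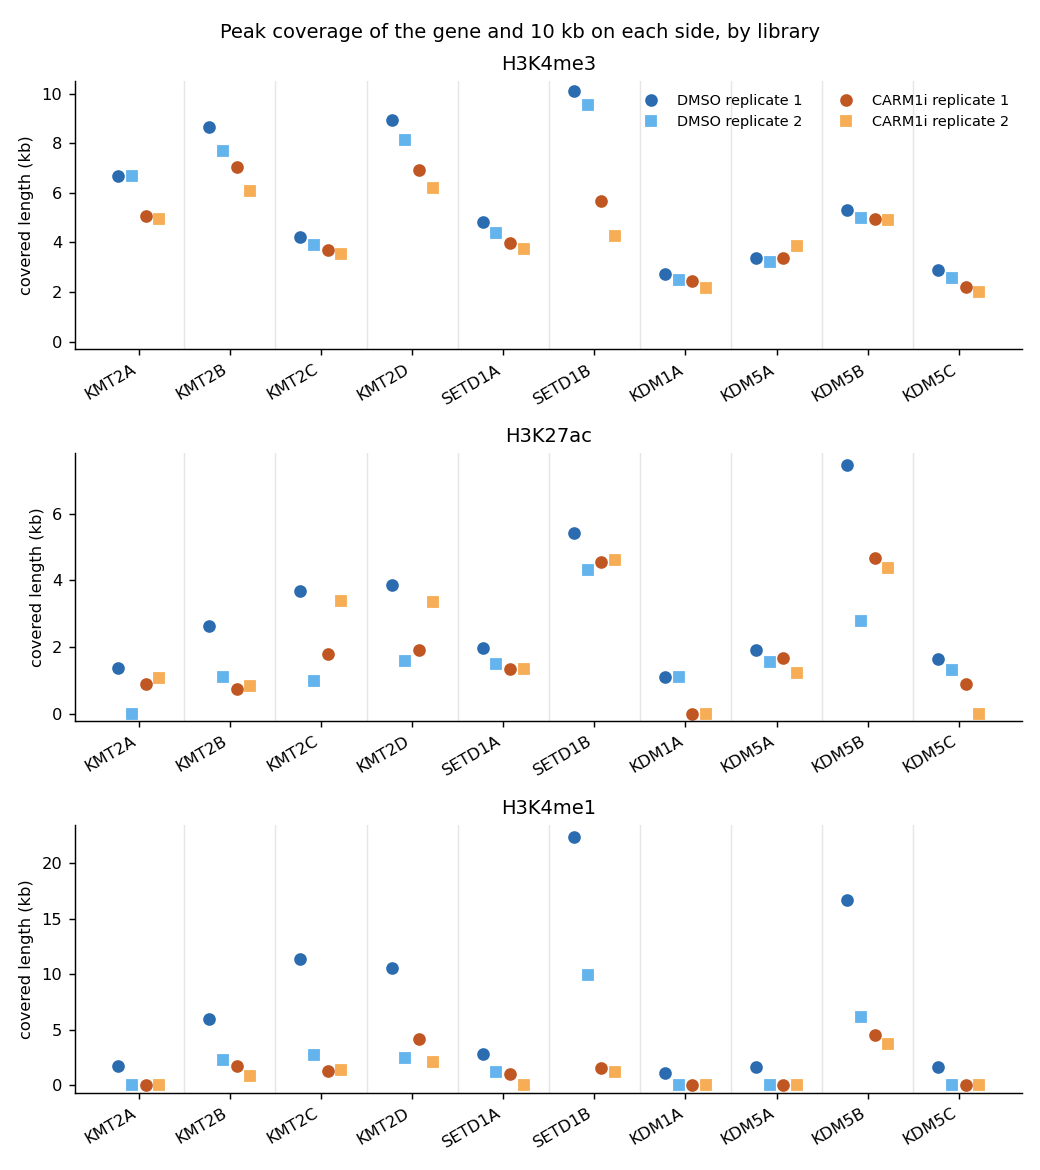
Covered length (kb) of H3K4me3, H3K27ac and H3K4me1 peaks in the window of each gene and 10 kb on each side; each symbol is 1 library. For H3K4me3 the CARM1i symbols lie below the DMSO symbols in 9 windows and above them at KDM5A, although 8 members lie higher once lengths are divided by the covered Mb of each list. For H3K27ac, KDM1A is at 0 in both CARM1i libraries.

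The promoters of 4 members are shown because their start peaks behaved differently from each other: KDM1A and KMT2B had no H3K27ac at the start in either CARM1i library, and KDM5A and KDM5B had a wider H3K4me3 start peak in both. Each line gives the 250 bases before the annotated start, 5′ to 3′ on the gene's strand (RefSeq, GRCh38.p14), at chr1:23019218-23019467 on the plus strand for KDM1A, chr19:35717753-35718002 on the plus strand for KMT2B, chr12:389321-389570 on the minus strand for KDM5A and chr1:202808422-202808671 on the minus strand for KDM5B. Capitals mark GC boxes (GGGCGG or its reverse complement, the letters bound by SP1-type factors) and, in the last bases of KDM1A, the first letters of an E2F core that runs across the start.
KDM1A: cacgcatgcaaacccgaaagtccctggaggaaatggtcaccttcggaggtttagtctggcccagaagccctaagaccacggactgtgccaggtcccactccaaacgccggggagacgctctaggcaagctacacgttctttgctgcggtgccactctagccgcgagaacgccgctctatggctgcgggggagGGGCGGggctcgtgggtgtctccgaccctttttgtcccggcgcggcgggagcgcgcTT
KMT2B: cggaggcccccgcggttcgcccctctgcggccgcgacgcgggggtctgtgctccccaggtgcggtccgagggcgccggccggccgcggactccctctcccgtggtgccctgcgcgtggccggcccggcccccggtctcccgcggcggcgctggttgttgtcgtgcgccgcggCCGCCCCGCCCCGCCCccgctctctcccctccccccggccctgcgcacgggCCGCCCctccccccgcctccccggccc
KDM5A: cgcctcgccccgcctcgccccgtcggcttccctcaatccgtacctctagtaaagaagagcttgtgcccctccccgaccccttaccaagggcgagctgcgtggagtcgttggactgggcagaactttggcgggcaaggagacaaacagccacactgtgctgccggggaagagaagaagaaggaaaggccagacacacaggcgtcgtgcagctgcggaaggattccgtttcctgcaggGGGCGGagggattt
KDM5B: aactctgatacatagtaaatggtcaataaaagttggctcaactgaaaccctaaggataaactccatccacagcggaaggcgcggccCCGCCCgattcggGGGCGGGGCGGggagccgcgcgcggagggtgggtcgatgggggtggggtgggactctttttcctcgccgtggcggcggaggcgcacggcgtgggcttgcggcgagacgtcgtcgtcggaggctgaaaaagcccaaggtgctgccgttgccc

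The promoters of 9 members, all but SETD1B, matched the promoter table, and were scanned on both strands from 250 bases before to 50 after the start. A GC box stood in 8 of the 9 (not in KDM5C), against 58.5% of 15812 protein-coding promoters, and GC boxes may overlap one another in this count. KMT2C held 15 of them and KMT2B 5. CCAAT was in 0 of the 9 (36.3% of all promoters) and TATAAA in 0 (9.64%). The E2F core (TTGGCGC or TTCCCGC) was found in KDM1A (12.3% of all promoters), starting 2 bases before its start, CACGTG in KMT2D (8.87%), GGAAGT in KDM5A (24.8%), and ATGGCGG, the core of YY1 sites, in KMT2B and KDM5C (7.63%), in both downstream of the start. TGACGTC (4.59% of all promoters) and GCGCATG (5.87%) were in 0 of the 9. CpG dinucleotides numbered 56 in KMT2C and 48 in KMT2B, but 20 in KDM5A and 22 in KDM5C, where 22 is the median of all promoters. A match describes letters only.

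Among the trimethylating enzymes, KMT2A, the MLL gene that is broken in leukaemic translocations, had the start peak with the lowest width ratio. A start peak is here the widest peak within 1 kb of the annotated start. Its H3K4me3 start peak measured 4555 and 4710 bp in the DMSO libraries and 3077 and 2936 bp in the CARM1i libraries, a mean of 4633 ± 110 bp against 3007 ± 99.7 bp (SD, n = 2 libraries each). The groups did not overlap, and the log2 ratio of -0.62 was at the 5.39th percentile of the 7925 genes with an H3K4me3 start peak in all 4 libraries. The peak was shorter on both sides of the start, and its edge inside the gene stood at 2456 and 2574 bp past the start with DMSO and at 1365 and 1290 bp with the inhibitor. A second H3K4me3 peak of the window, beyond the other end of KMT2A at TTC36 and TMEM25, covered 2141 and 1979 bp against 1991 and 2009 bp, with overlap between the groups. H3K27ac at the KMT2A start was found in DMSO replicate 1 (1372 bp) and in both CARM1i libraries (878 and 1060 bp) but not in DMSO replicate 2.

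KMT2B, the close relative of KMT2A, kept its H3K4me3 start peak, at 3293 and 2680 bp with DMSO against 2750 and 2460 bp with the inhibitor. Those widths overlapped between the groups. Its H3K27ac start peak, by contrast, was 1148 and 1083 bp wide with DMSO and absent from both CARM1i lists. ZBTB32 lies within 2 kb of both of these start peaks, so they may not belong to KMT2B alone. The window as a whole still held H3K27ac, because a peak beyond the far end of the gene, at IGFLR1 and U2AF1L4, covered 1492 bp in DMSO replicate 1 and 724 and 831 bp in the CARM1i libraries. The whole window therefore counted as kept, at 2640 and 1083 bp with DMSO against 724 and 831 bp with the inhibitor. When the flanks were shortened to 2 kb or left off, KMT2B counted as lost. H3K4me1 in the window covered 6005 and 2292 bp against 1743 and 864 bp, and its part in all 4 libraries was the region at the same neighbours.

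SETD1A and SETD1B, the catalytic subunits of the complexes that place most H3K4me3, differed in the size of the H3K4me3 difference over their own windows. The SETD1A window held 4838 and 4402 bp with DMSO against 3988 and 3737 bp with the inhibitor. Its log2 ratio of -0.26 was at the 62.3rd percentile of all genes with H3K4me3. At SETD1A the H3K4me3 start peak was 3010 and 2863 bp wide with DMSO against 2515 and 2214 bp with the inhibitor, a log2 ratio of -0.31 near the -0.26 median of all genes. Its H3K27ac start peak measured 1963 and 1478 bp against 1331 and 1342 bp and did not overlap between the groups. ORAI3 lies within 2 kb of both SETD1A start peaks.

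SETD1B had the largest H3K4me3 difference of the 10 windows. Coverage was 10108 and 9554 bp with DMSO against 5669 and 4272 bp with the inhibitor (9831 ± 392 against 4971 ± 988 bp, SD, n = 2 each), a log2 ratio of -0.98 at the 15.0th percentile of all genes with H3K4me3. The main domain, at about 10 kb above the gene's lower coordinate, was a single peak of 6474 and 6476 bp in the DMSO libraries. In the CARM1i libraries it was split into peaks of 1816 and 3853 bp in replicate 1 and of 1784 and 2488 bp in replicate 2. The gap was narrow in replicate 1, from 11555 to 11696 bp above the lower coordinate. In replicate 2 it was wider, from 11446 to 13087 bp. A pair of smaller H3K4me3 regions was lost. The first lay inside the gene on chromosome 12 from 121792796 to 121794816, within 2 kb of RHOF, with 1787 and 1717 bp under DMSO. The second lay beyond the upper end from 121838896 to 121840742, at HPD, with 1847 and 1361 bp. They are the only H3K4me3 regions lost among the 20 in the members' windows, all 20 of which were in both DMSO lists, while 10.9% of all regions found in both DMSO lists were lost.

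H3K27ac at SETD1B stayed on the main domain, at 5414 and 4322 bp with DMSO against 4561 and 4605 bp with the inhibitor, with overlap between the groups. It was 1 peak in DMSO replicate 1 and 2 peaks in DMSO replicate 2 and in both CARM1i libraries, so its split was not limited to the inhibitor. H3K4me1 covered 22348 and 9941 bp with DMSO, the widest coverage of the set in both libraries, and 1525 and 1160 bp with the inhibitor. The H3K4me1 peaks that remained were at different places in the 2 CARM1i libraries, at the lower end of the gene in replicate 2 and above the main domain in replicate 1. SETD1B was the member whose H3K4me1 coverage stayed lower in both CARM1i libraries after division by the covered Mb of each list, as 22.6% of all genes with H3K4me1 were. Those are 2386 of the 4973 genes with H3K4me1 in both DMSO libraries, the only genes that can be lower.

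**Figure D2:**
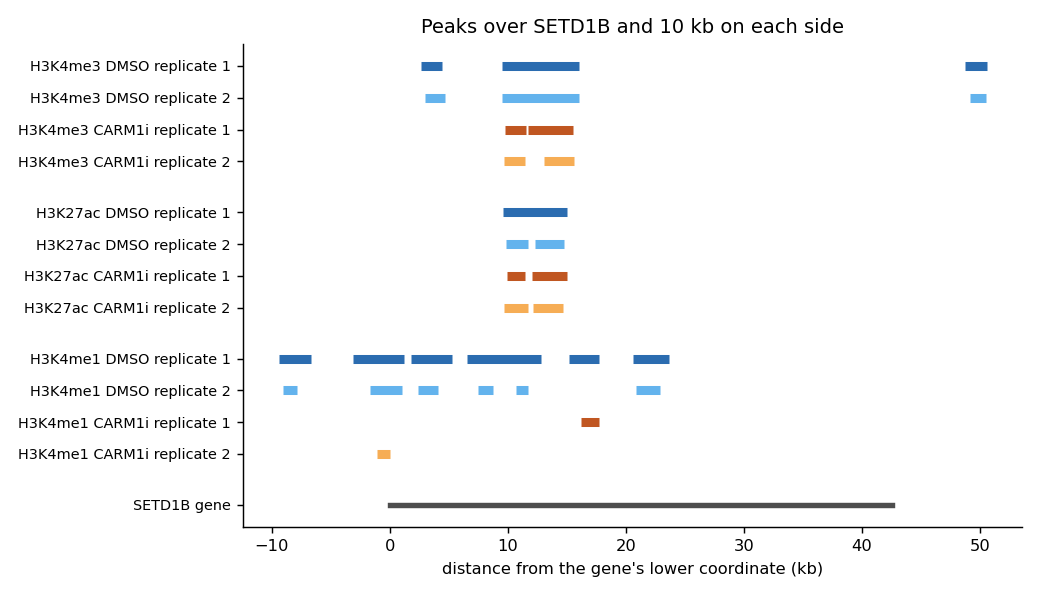
Peaks of the 3 marks in the 12 libraries over SETD1B and 10 kb on each side, plotted by distance (kb) from the gene's lower coordinate. The H3K4me3 domain that is a single peak of 6474 and 6476 bp with DMSO is broken in both CARM1i libraries. The gap is much narrower in CARM1i replicate 1 than in CARM1i replicate 2. The H3K4me3 peaks near 3 kb and 50 kb are in the DMSO libraries only.

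KMT2C and KMT2D, which place H3K4me1 at enhancers, carried wide H3K4me3 start peaks. KMT2D measured 4436 and 4229 bp with DMSO against 3320 and 3200 bp with the inhibitor, above the 95th percentile of widths in each list. The inner edge at KMT2D stood 3301 and 3117 bp past the start with DMSO against 2354 and 2148 bp with the inhibitor, and its outer edge at -1134 and -1111 bp from the start against -965 and -1051 bp. At KMT2C the widths were 4228 and 3894 bp against 3679 and 3552 bp, a smaller difference with a log2 ratio of -0.17, against -0.41 at KMT2D. Neither gene's groups overlapped.

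H3K27ac at the KMT2D start was in all 4 libraries, at 2046 and 1568 bp with DMSO against 1902 and 1757 bp with the inhibitor, and the groups overlapped. The KMT2C start had H3K27ac in DMSO replicate 1 (1919 bp) and both CARM1i libraries (1783 and 1241 bp), and none in DMSO replicate 2. Inside the 301 kb of KMT2C, 3 more H3K27ac regions were each found in a single library, a different library each time. H3K4me1 over KMT2C covered 11349 and 2699 bp against 1263 and 1375 bp, and over KMT2D 10567 and 2483 bp against 4152 and 2119 bp. DMSO replicate 1 stood well above the other 3 libraries at both genes.

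Among the demethylases, KDM1A was the only member whose whole window lost a mark. H3K27ac at its start was 1094 and 1109 bp wide with DMSO (1102 ± 10.6 bp, SD, n = 2) and was listed in neither CARM1i library. The region runs on chromosome 1 from 23019366 to 23020499, which is -102 to 1031 bp from the start, over the first stretch of the gene. Of the 17 H3K27ac regions in the members' windows, 8 were found in both DMSO lists, and 2 of these 8 were lost, this region and the KMT2B start. That is near the 24.5% lost among all regions found in both DMSO lists. H3K4me3 at the same start was kept, at 2743 and 2500 bp against 2428 and 2164 bp. Of the genes with H3K27ac in the window in both DMSO libraries, 24.1% lost it, and 1 of the 9 such members did, while 7 of the 9 kept it in all 4 libraries (54.4% of genes).

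The start peaks of H3K27ac put that loss beside KMT2B. Of 6 members with an H3K27ac start peak in both DMSO libraries, KDM1A and KMT2B lost it, and 29.8% of all 1782 such genes did. These were the narrowest of the 6. In the narrower DMSO library KMT2B measured 1083 bp and KDM1A 1094 bp, both among the 446 narrowest of these genes (up to 1151 bp), in which 54.7% of genes lost the peak against 21.5% of the other genes. Peak width thus moved with the loss, and its part in the result was not tested. KDM1A no longer counted as lost in lists cut to the same number of widest peaks, since its peak in DMSO replicate 1 was then removed. KDM5C was near the same state, with 1636 and 1303 bp against 887 bp in CARM1i replicate 1 and no peak in CARM1i replicate 2, and without CARM1i replicate 1 it counted as lost.

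**Figure D3:**
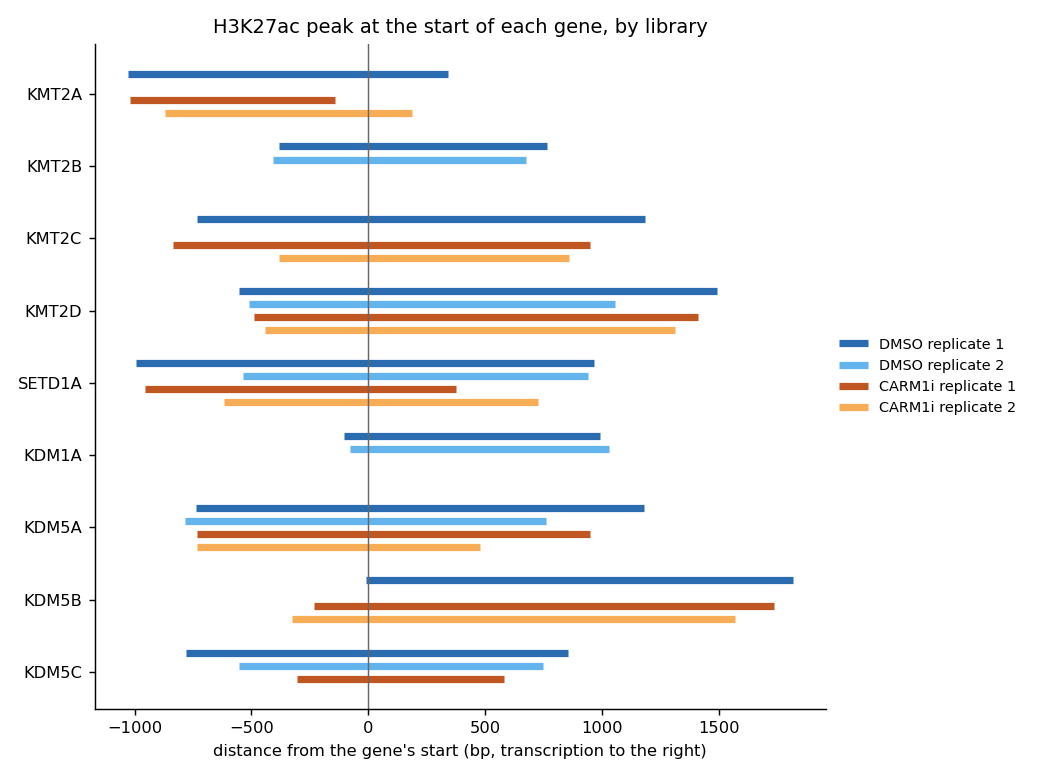
H3K27ac start peak of 9 genes in each library, by distance (bp) from the start with transcription to the right; each bar is 1 library's peak and a missing bar means that no peak lay within 1 kb. KMT2B and KDM1A have bars in the DMSO libraries only, and KMT2A, KMT2C and KDM5B lack a bar in DMSO replicate 2.

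The KDM5 demethylases, which remove H3K4me3, lay on both sides of the median of all genes. At KDM5A, also known as RBP2 for its binding to the retinoblastoma protein, the H3K4me3 start peak was 3361 and 3206 bp wide with DMSO against 3383 and 3854 bp with the inhibitor. At KDM5B, also called PLU-1, it was 3080 and 2971 bp against 3228 and 3235 bp. Both were wider in both CARM1i libraries, as were 45 of the 7925 genes with an H3K4me3 start peak in all 4 libraries (0.568%), and their log2 ratios of 0.14 and 0.10 stood above 99.6% and 99.4% of these genes. At KDM5A the result rests mainly on CARM1i replicate 2: CARM1i replicate 1 exceeded DMSO replicate 1 by only a few base pairs, and the mean difference of 335 bp was 99.5 bp without CARM1i replicate 2 and 571 bp without CARM1i replicate 1. At KDM5B the mean difference of 206 bp ranged from 152 to 261 bp when single libraries were left out.

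The start peaks of KDM5A and KDM5B were longer on the gene side and shorter on the outer side. The inner edge stood 2158 and 2031 bp past the KDM5A start with DMSO against 2294 and 2745 bp with the inhibitor, and 2320 and 2141 bp against 2609 and 2515 bp at KDM5B. A farther inner edge in both CARM1i libraries was found in 1.6% of the 7925 genes. The outer edge was nearer the start, at -1202 and -1174 bp under DMSO and -1088 and -1108 bp under the inhibitor at KDM5A, and at -759 and -829 bp against -618 and -719 bp at KDM5B. Much of this lies beyond 2 kb of the start, and in a window cut there both covered less with the inhibitor on average, by -90.0 bp at KDM5A and -295.5 bp at KDM5B. The KDM5B value is not that of the start peak alone, since the cut window takes in part of a second H3K4me3 region, which reaches to -1481 bp. The whole KDM5B window was also lower, at 5308 and 4995 bp against 4955 and 4889 bp (a mean difference of -229.5 bp). It holds all of that second region, which lies on the outer side, on chromosome 1 from 202809902 to 202812129. The second region covered 2228 and 2024 bp with DMSO against 1727 and 1654 bp with the inhibitor. CCDC77 begins within 2 kb of the outer side of the KDM5A start, and the same H3K4me3 peak is the start peak of both genes (log2 ratio 0.14 for each). The wider peak can therefore not be assigned to KDM5A alone, and the 45 wider genes count it once for each gene. Both KDM5B regions lie within 2 kb of LOC124904583.

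H3K27ac was in a different state at each of these starts. At KDM5A the H3K27ac start peak was 1918 and 1546 bp against 1682 and 1212 bp, with overlap between the groups. At KDM5B it was 1827 bp in DMSO replicate 1, absent from DMSO replicate 2, and 1969 and 1898 bp in the CARM1i libraries. A second H3K27ac region near the far end of KDM5B (chromosome 1, 202727148 to 202730831) was in all 4 libraries, at 3684 and 2786 bp against 2722 and 2468 bp, and was overlapped by H3K4me1 of 5202 and 3685 bp against 4523 and 3727 bp. This was 1 of 2 H3K4me1 regions, of 30 in the members' windows, with a peak in all 4 libraries (6.67%, near the 7.13% of all H3K4me1 regions).

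KDM5C, the X-linked member, was narrower, as most genes were. Its H3K4me3 start peak was 2875 and 2548 bp with DMSO against 2218 and 2017 bp with the inhibitor, a log2 ratio of -0.36. The outer edge stood at -1209 and -1138 bp from the start against -670 and -764 bp, while the inner edge overlapped between the groups. IQSEC2 lies within 2 kb of the H3K4me3 and H3K27ac start peaks of KDM5C.

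**Figure D4:**
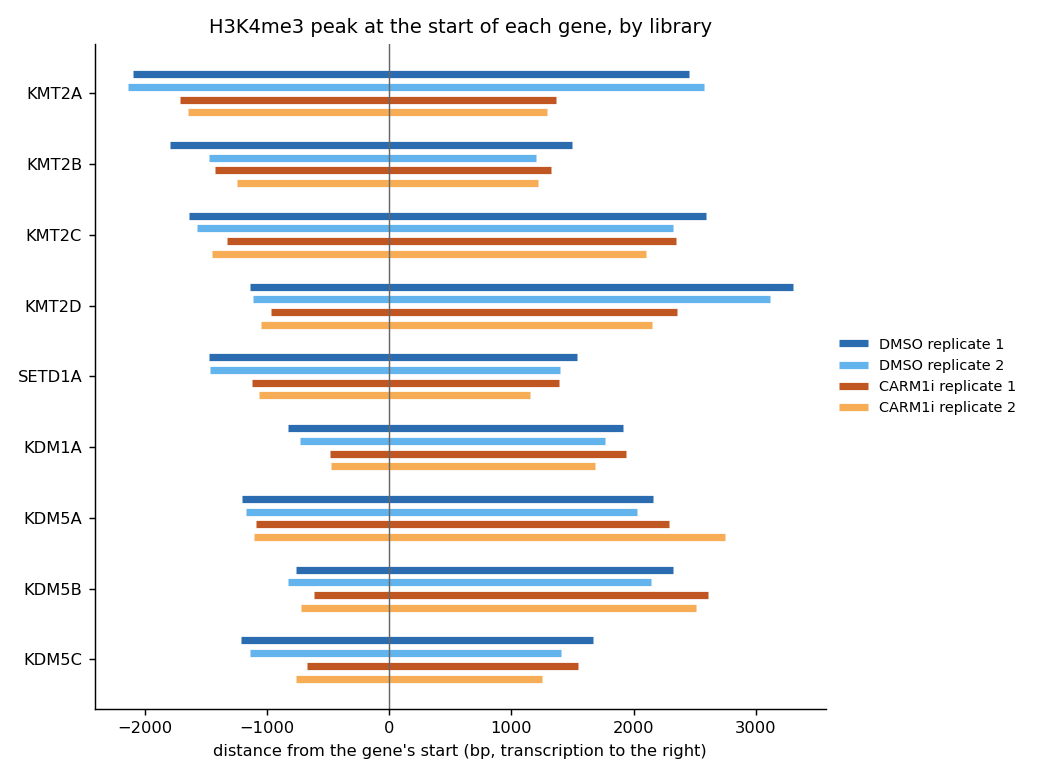
H3K4me3 start peak of 9 genes in each library, by distance (bp) from the start with transcription to the right; each bar is 1 library's peak. On the left every gene's CARM1i bars end nearer the start than its DMSO bars, and on the right those of KDM5A and KDM5B reach farther.

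Across the 9 members with an annotated start, 6 had a narrower H3K4me3 start peak in both CARM1i libraries (82.2% of all genes did), 2 a wider peak, and KMT2B overlapped. The outer edge was nearer the start in both CARM1i libraries at 9 of 9 (70.6% of all genes). The inner edge was nearer at 3 of 9, namely KMT2A, KMT2D and SETD1A (69.6% of all genes). KMT2B, KMT2C, KDM1A and KDM5C had inner edges that overlapped between the groups. The order of log2 ratios ran from KMT2A through KMT2D, KDM5C, SETD1A, KMT2B, KDM1A and KMT2C to KDM5B and KDM5A.

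**Figure D5:**
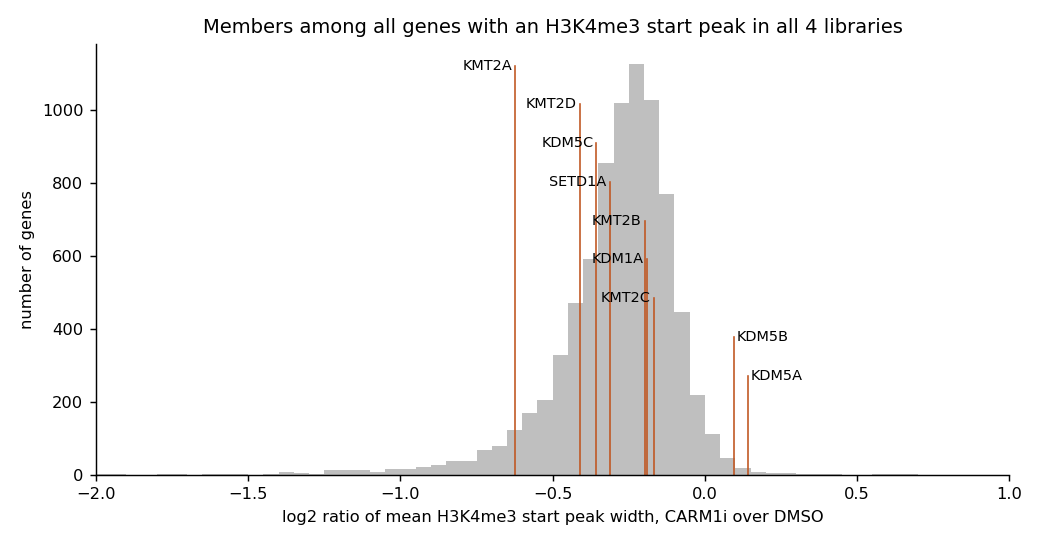
Distribution of the log2 ratio of mean H3K4me3 start peak width (CARM1i over DMSO) over the genes with a start peak in all 4 libraries (grey bars, number of genes), with vertical lines at the 9 members. KMT2A lies at -0.62, KDM5B and KDM5A at 0.10 and 0.14, to the right of nearly all genes, whose median is -0.26.

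For H3K27ac coverage of the whole windows, the median log2 ratio was -0.22 over the 10 members and -1.40 over the 7408 genes with a peak in any library, and 42.8% of those genes had no peak in either CARM1i list. These sets differ, since 9 of the 10 members had the mark in both DMSO libraries, against 3469 of the 7408 genes. Coverage was lower in both CARM1i libraries at 4 members (KMT2B, SETD1A, KDM1A and KDM5C), against 25.4% of genes, and higher in both at 0, against 5.44%. Only genes with the mark in both DMSO libraries can be lower by this rule. Of those, 4 of the 9 members and 1878 of the 3469 genes were lower, so the 25.4% understates the share among comparable genes. No member lacked H3K27ac in both DMSO libraries, so none could gain it (0.981% of the genes that lacked it did). At KMT2A, KMT2C, KMT2D, SETD1B, KDM5A and KDM5B the CARM1i values lay between those of the DMSO libraries or overlapped them, and DMSO replicate 1, whose list is the longest, was the highest of the 4. The sum over the members was 31051 and 16187 bp with DMSO against 18439 and 20136 bp with the inhibitor, so the inhibitor values lay within the gap between the DMSO libraries. Without DMSO replicate 1, 5 members were higher and the log2 ratio of the sum was 0.25, and without DMSO replicate 2 all 10 were lower, with a median of -0.55. Without CARM1i replicate 1, 2 members lost the mark.

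None of the 6 members with H3K4me1 in both DMSO libraries lost it from the window, where 39.8% of such genes did, and 5 kept it in all 4 libraries, where 35.5% did. The call is for the whole window and need not mean that a given region was kept. At KMT2C, KMT2D and SETD1B the peaks of the CARM1i libraries lay in different regions. At KMT2B they lay in the region at IGFLR1 and U2AF1L4, and at KDM5B in a region within the gene. No member could gain H3K4me1, since each had it in a DMSO library (0.0633% of genes without it gained it). The median log2 ratio was -3.0 over the 10 members, of which 4 had no peak in either CARM1i library, and 66.7% of the 10564 genes with H3K4me1 had none. These values rest on single libraries and on list length: the median was -0.92 without DMSO replicate 1 and -0.43 in lists of equal length, the members that lost the mark were 4 without DMSO replicate 2 and 1 without CARM1i replicate 1, and the lower members named next were 10 without DMSO replicate 2. Coverage was lower in both CARM1i libraries at 5 members (KMT2B, KMT2C, SETD1A, SETD1B and KDM5B), against 42.4% of genes with a peak, and higher at 0, against 0.133%. Only genes with H3K4me1 in both DMSO libraries can be lower by this rule. Of those, 5 of the 6 members and 4475 of the 4973 genes were lower. KMT2A, KDM1A, KDM5A and KDM5C had an H3K4me1 peak only in DMSO replicate 1, of 1146 to 1715 bp, beginning between 807 and 1136 bp past the start. Of the 30 H3K4me1 regions in the windows, 16 were in DMSO replicate 1 alone, as were 15752 of all 25624 regions. Of the 11 regions found in both DMSO lists, 5 were lost, at SETD1B (4 regions) and at the start of KDM5B (2638 and 2441 bp with DMSO), a share near the 54.4% lost among all such regions. After division by the covered Mb of each list KMT2B and KDM5B, lower before it, were higher in both CARM1i libraries, as was KMT2D, whose groups overlapped before it, and SETD1B was lower. Of all genes with H3K4me1, 9.72% were higher and 22.6% lower on that scale, the lower ones being 2386 of the 4973 genes that could be. KMT2B was higher by a narrow margin, with 104.08 bp per covered Mb in CARM1i replicate 2 against 103.54 in DMSO replicate 2.

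The partners of these enzymes were read the same way, from a list of 33 genes. H3K4me3 coverage was lower in both CARM1i libraries at 30 of 33 (82.8% of all genes with a peak) and higher at 0 (0.563%), with a median log2 ratio of -0.27 against -0.32 for all genes. After division by the covered Mb of each list, as at the members, the direction differed: 6 of the 33 were lower and 20 higher, with a median of 0.16. Of all genes with H3K4me3, 18.2% were lower and 47.9% higher on that scale, with a median of 0.11. The 4 shared subunits WDR5, RBBP5, ASH2L and DPY30, which all these methyltransferase complexes contain, were lower in H3K4me3 before that division. Of the 14 partner genes with H3K4me1 under DMSO in both libraries, 5 lost it, a share near the 39.8% of all such genes, and 3 of the 5 were shared subunits. H3K4me1 covered 8602 and 3761 bp at WDR5, 3842 and 1567 bp at RBBP5 and 2069 and 1021 bp at ASH2L with DMSO. H3K4me1 was also lost at WDR82, a subunit of the SETD1 complexes (3989 and 2372 bp), and at RCOR1, the scaffold of the KDM1A complex (6935 and 1467 bp). GSE1, a subunit of KDM1A complexes, was the partner gene that lost both H3K27ac (6991 and 3095 bp with DMSO) and H3K4me3 (6772 and 4648 bp). It was the 1 of 33 to lose H3K4me3, which 4.79% of all genes did. Among the 33 genes, 1 of the 19 whose DMSO libraries both had H3K27ac lost it, beside 24.1% of all genes. None of the 33 gained a mark.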

How the data were processed

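ChIP-seq peaks of H3K27ac, H3K4me1 and H3K4me3 in Toledo cells were analysed as the authors deposited them: 1 list of intervals (chromosome, start, end) for each of 12 libraries, with no score, height, count or p-value. Bowtie 1.1.2, MACS 1.4.2 and hg38 are named in the submitters' processing notes, while settings are not stated there. The 4 input libraries were not analysed here. The 10 members, the partner genes, the marker lists and the motifs were chosen with earlier results of these data known. All members are named, and partner genes are named where they lost or gained a mark, DPY30 to complete its sublist.

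From the intervals, the base pairs covered in each gene and 10 kb on either side were computed with Python 3.11.15, numpy 2.4.6 and pandas 2.3.3, for 19974 protein-coding genes of the RefSeq table (GRCh38.p14). Starts came from the RefSeq promoter table, which matched 15812 genes and 9 members. Comparisons were of 2 against 2 libraries, by non-overlap of the groups and the two-sided exact permutation test over 6 assignments, with no adjustment, with p-values that speak only of the spread of these libraries. Since depth is unknown, no counting interval is given. Same-numbered libraries did not deviate together (r = -0.02, -0.02 and 0.01 across genes, for H3K27ac, H3K4me1 and H3K4me3), so replicate numbers were not used as pairs. The counting was tested on simulated data. Alternatives were other windows, peak filters, lists of equal length, lengths divided by the list's covered Mb, a replicate block and leaving out each library.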

Additional observations from a re-analysis of the deposited data

How the results depend on the processing

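For H3K27ac, the 1 member that lost the mark became 2 over the gene body alone, with 2 kb flanks and in 2 kb around the start, 3 with peaks of at least 1 kb, and 0 in lists of equal length. The 7 kept members became 3 around the start and 4 with peaks at no other gene. The 4 members lower in both CARM1i libraries became 2 with peaks at no other gene and 1 in lists of equal length, and the 0 higher became 1 around the start and 2 after scaling to covered Mb. After scaling, 3 members were lower, and of all genes with H3K27ac 19.8% were lower and 10.9% higher. Only the 3469 genes with H3K27ac in both DMSO libraries can be lower, and 1464 of them were. The median log2 ratio of -0.22 was -0.62 over the gene body, and the log2 ratio of the sum (-0.29) was 0.00216 after scaling. Leaving out single libraries gave 1 to 2 lost, 0 to 1 gained, 7 to 8 kept, 4 to 10 lower, 0 to 5 higher, medians of -0.55 to -0.01 and sums of -0.69 to 0.25, the highest without DMSO replicate 1. At the starts it gave 2 to 3 lost, 1 to 4 wider and 4 to 8 narrower.

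For H3K4me1, the 0 lost became 1 around the start, and the 5 kept became 0 around the start and 2 with peaks at no other gene. The 5 lower became 3 over the gene body, with 2 kb flanks, with peaks at no other gene and in lists of equal length, and 1 around the start and after scaling, when 3 were higher in place of 0. Of all genes with H3K4me1, 22.6% were lower and 9.72% higher after scaling. Only the 4973 genes with H3K4me1 in both DMSO libraries can be lower, and 2386 of them were. The median of -3.0 was -0.43 in lists of equal length and -0.72 after scaling. The log2 ratio of the sum (-2.10) was -3.99 around the start and 0.17 after scaling. Leaving out single libraries gave 0 to 4 lost, 5 to 6 kept, 5 to 10 lower, 0 higher, medians of -3.58 to -0.92 and sums of -2.69 to -1.07. No finite median exists over the gene body, with 2 kb flanks, around the start or without CARM1i replicate 1, because too many members had no CARM1i peak. In bp, SETD1A was higher by 514.5 in lists of equal length, and after scaling SETD1A by 6.88, KMT2B by 46.2, KDM5B by 197 and KMT2D by 212 bp per covered Mb.

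For H3K4me3, the 9 lower became 4 over the gene body, 5 with peaks at no other gene and 1 after scaling. The 1 higher became 2 over the gene body, 0 with 20 kb flanks, around the start and with peaks at no other gene, and 8 after scaling, and the 10 kept became 5 with peaks at no other gene. After scaling, the median of -0.29 was 0.15 and the log2 ratio of the sum (-0.35) was 0.077. Leaving out single libraries gave 9 lower, 1 higher, medians of -0.36 to -0.21, sums of -0.42 to -0.30, 6 to 7 narrower and 2 wider start peaks. KDM5B was higher by 331.5 bp over the gene body and 36.0 bp with 2 kb flanks, and KDM5A differed by -90.0 bp around the start. After scaling, KMT2A was higher by 1.94, KMT2B by 25.8, KMT2C by 30.6, KMT2D by 12.3, SETD1A by 22.1, KDM1A by 17.7, KDM5B by 55.7 and KDM5C by 5.47 bp per covered Mb. The cause of these changes was not tested. With the replicate block, 5 members were lower for H3K27ac, 6 for H3K4me1 and 9 for H3K4me3, and 0, 0 and 1 were higher, with log2 ratios of the sum of -0.22, -1.92 and -0.35. Leaving out libraries of the start peaks and scaling the partner genes were chosen after seeing the data. With no depth, peak height or threshold in the lists, a site absent from a list may lie just under the caller's limit, and lane cannot be told apart from treatment.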

Other observations

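KDM1A shared its pattern of presence over the 12 libraries (H3K27ac in the DMSO libraries only, H3K4me3 in all 4 and H3K4me1 in DMSO replicate 1 alone) with 287 genes. By Euclidean distance of log2 (covered bp + 1) over the libraries, the nearest were TEX46, whose window holds the same peaks, then UBR4 and SRRM1. UBR4, a ubiquitin ligase, had H3K27ac of 1222 and 1003 bp with DMSO and none with the inhibitor, and H3K4me3 of 2648 and 2713 bp against 2387 and 2362 bp. SRRM1, a splicing factor, had H3K27ac of 1096 and 1217 bp against none, and H3K4me3 of 3027 and 2933 bp against 2380 and 2505 bp. Of the 531 genes that lost an H3K27ac start peak, 516 kept an H3K4me3 start peak in all 4 libraries, as KDM1A and KMT2B did.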
